A study of Homo sapiens with 21 samples.

Results

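Counts of transcript 3′ ends were examined for 9 genes of pyrimidine nucleotide metabolism: CAD, DHODH, UMPS, CTPS1, CTPS2, DCTPP1, UCK2, CMPK1 and NME1. They were chosen by name, as the rows of the count table whose Ensembl identifiers map to these symbols, and all 9 were found among the 54042 genes of the table. The cells were MV4-11, an established human leukaemia line of mixed B-lymphoid and myelomonocytic type, in 21 libraries that form 7 groups of 3. Wild type (WT) cells were given the solvent DMSO, ironomycin for 6 h or ironomycin for 24 h, and cells with a CRISPR knockout (KO) of HK2 or of PGP were given DMSO or ironomycin for 24 h. Ironomycin (AM5) is a derivative of salinomycin that traps iron inside the cell, and the title of the series speaks of lowered mitochondrial iron. HK2 is hexokinase 2, the first enzyme of glycolysis, and PGP is phosphoglycolate phosphatase, which clears side products of metabolism. No time is given for the DMSO groups, and the labels state neither the edited sites nor the clonal state of the knockouts. Nothing says that replicates were grown apart, and the p-values then speak only of the scatter among these libraries, which may be technical.

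Cells make pyrimidine nucleotides either anew or by salvage. In the new synthesis, CAD joins glutamine, bicarbonate and aspartate into dihydroorotate. DHODH, dihydroorotate dehydrogenase, sits in the inner mitochondrial membrane and passes the electrons of dihydroorotate to ubiquinone, so that it runs only while the respiratory chain reoxidises ubiquinol. UMPS then turns orotate into uridine monophosphate, CTPS1 and CTPS2 make CTP from UTP, and the kinases CMPK1 and NME1 add the second and the third phosphate. UCK2 starts salvage by phosphorylating uridine and cytidine, and DCTPP1 hydrolyses dCTP and its modified forms. Leukaemia cells that divide quickly depend on the new synthesis, and DHODH inhibitors have been tested against acute myeloid leukaemia.

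Each library held between 3829274 and 6069264 counts, with a median of 4823817. Levels are given as CPM, counts scaled to a common library size by TMM. Changes are given as log2 fold change ± SE, intervals are 95% intervals of that log2 value, and all come from edgeR's quasi-likelihood test. A gene was called where p, adjusted by Benjamini-Hochberg over the 11610 genes past a filter on low counts, was under 0.05. All 9 genes of interest passed that filter. The second WT library of 6 h ironomycin stood apart, with deviations from the mean of its 2 replicates that had an SD of 0.675 on the log2 scale over all genes, against 0.332 to 0.48 in the other libraries. The myeloid markers CD33 (73.4 to 105 CPM) and FLT3 (180 to 468 CPM) were present in every library, while CD68 was at 0 in all of them and CD14 and CEBPA stayed below 1 CPM. Summed B-lymphoid markers lay at 24.1 to 63.9 CPM in the DMSO libraries, mostly IGLL1, and at 7 to 16.1 CPM at 24 h, with CD79B and VPREB1 at 0 throughout. Summed T or NK markers, mostly NKG7, lay at 9.10 to 17.4 CPM in DMSO and at 27.3 to 49.7 CPM at 24 h. Their part in the results on the 9 genes was not tested. In bulk RNA, fewer cells of a type and less RNA per cell cannot be told apart. HK2 averaged 52.6 ± 14.7 CPM in WT and 22 ± 2.49 CPM in the HK2 knockout in DMSO (SD, n = 3), with a log2 fold change -1.27 ± 0.28, adjusted p = 0.121. PGP averaged 90.6 ± 4.49 and 75.4 ± 7.1 CPM in WT and in its knockout (log2 fold change -0.26 ± 0.12, adjusted p = 0.879). Edited transcripts can still carry their 3′ end, so these values check neither knockout.

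Under ironomycin, CAD and UMPS, which open and close the synthesis of uridine monophosphate, were called lower in all 4 comparisons with DMSO, as were CTPS1, DCTPP1 and NME1. DHODH was called lower in 3 of the 4, and CTPS2 and UCK2 in none. At 6 h in WT cells, 6 of the 9 genes fell (CAD, DHODH, UMPS, CTPS1, DCTPP1 and NME1) and none rose, where 22% of all tested genes were called and 11.1% were called lower (edgeR). At 24 h in WT cells, 5 fell (CAD, UMPS, CTPS1, DCTPP1 and NME1) and none rose, against 29.8% of all tested genes called, 14.6% lower and 15.3% higher. In HK2 knockout cells at 24 h, 6 fell (CAD, DHODH, UMPS, CTPS1, DCTPP1 and NME1) and none rose, against a background of 29.4% called and 13.5% called lower. In PGP knockout cells at 24 h, 6 fell (CAD, DHODH, UMPS, CTPS1, DCTPP1 and NME1) and CMPK1 rose, against a background of 31.5% called, 15.4% lower and 16.1% higher. The median log2 fold change of the 9 genes was -0.47 at 6 h in WT, -0.65 at 24 h in WT, -0.67 in HK2 knockout and -0.73 in PGP knockout cells, where the medians over all tested genes were 0.016, 0.025, 0.034 and 0.037. The 6 h and 24 h comparisons in WT share their 3 DMSO libraries. For CAD, DHODH, UMPS, CTPS1 and DCTPP1, every one of the 9 DMSO libraries lay above every one of the 12 ironomycin libraries, a pattern seen in 4.57% of all tested genes. The reverse pattern was seen in 3.9%.

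**Figure D1:**
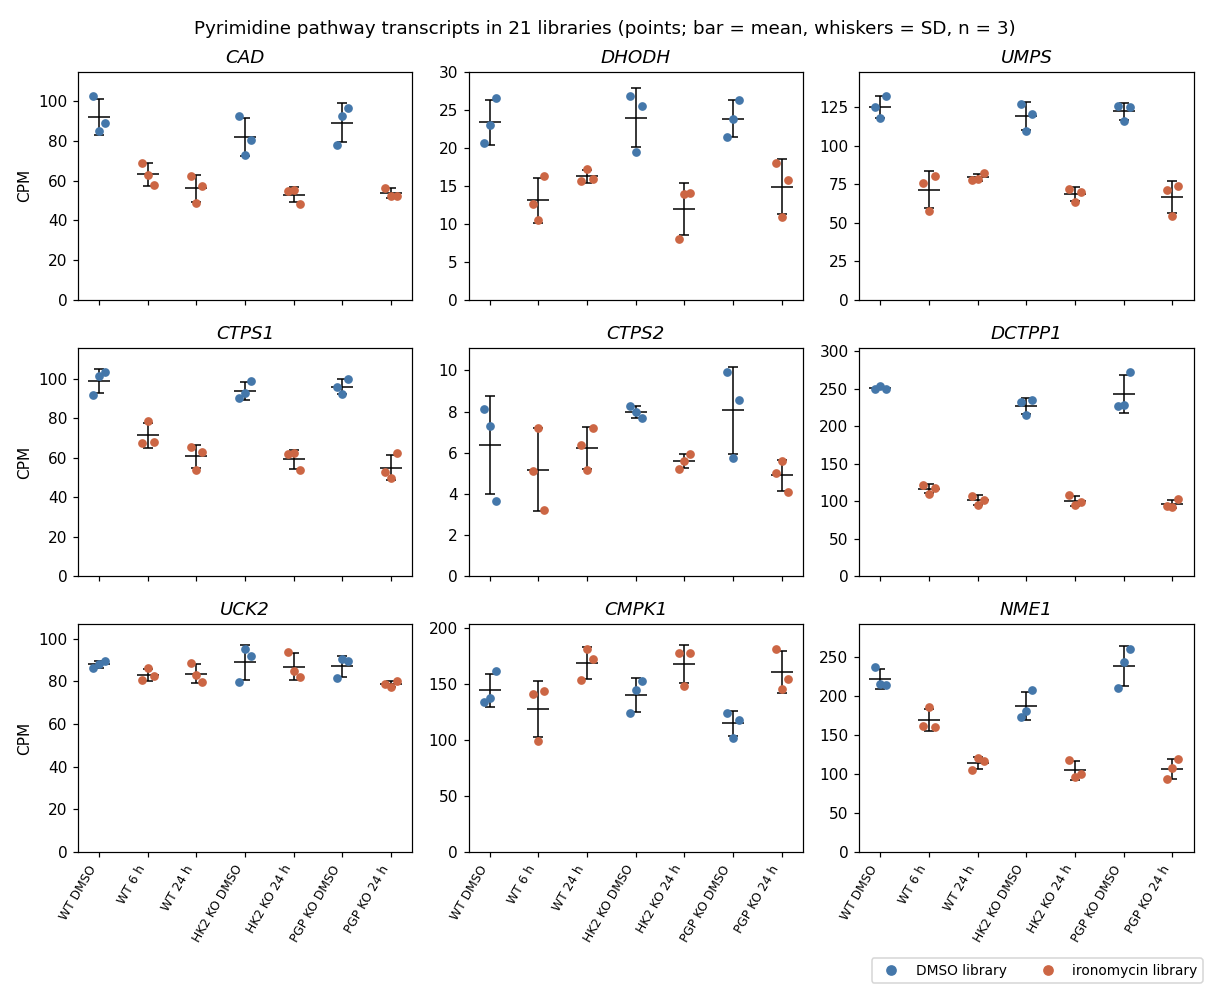
Level of each of the 9 transcripts in CPM (TMM-scaled, y axis from 0) in the 7 groups on the x axis. Points are single libraries, blue for DMSO and orange for ironomycin, bars are means and whiskers SDs (n = 3). For CAD, DHODH, UMPS, CTPS1 and DCTPP1 all DMSO points sit above all ironomycin points, UCK2 points lie between 77.2 and 95.2 CPM throughout, and NME1 has an intermediate level at 6 h.

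CAD, which carries the first committed steps, stood at 103, 85.1 and 88.9 CPM in the 3 WT DMSO libraries. With ironomycin it stood at 69.2, 62.6 and 57.7 CPM at 6 h and at 62.4, 48.8 and 57.3 CPM at 24 h. Both ironomycin groups lay wholly below the DMSO group, as did 17.3% of all tested genes at 6 h and 22.6% at 24 h, while the 6 h and 24 h libraries overlapped each other. CAD fell by 31.5% at 6 h (log2 fold change -0.55 ± 0.12, adjusted p = 0.0027). It fell by 39% at 24 h (log2 fold change -0.71 ± 0.12, adjusted p = 0.000123). Without HK2 its level went from 92.4, 73.2 and 80.5 CPM in DMSO to 55.1, 55.1 and 48.5 CPM at 24 h (log2 fold change -0.63 ± 0.12, adjusted p = 0.000549). In PGP knockout cells it went from 78.1, 92.6 and 96.8 CPM to 56.5, 52.5 and 52.4 CPM (log2 fold change -0.73 ± 0.13, adjusted p = 0.000104). Each knockout thus showed 3 DMSO libraries above 3 ironomycin libraries, as WT did, and so did 21.6% of all tested genes in HK2 knockout and 21.2% in PGP knockout cells.

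The 250 bases before the CAD start site are shown as an example of the promoter of a gene that fell in all 4 comparisons with DMSO. They are the RefSeq sequence of chr2:27217119-27217368 on the plus strand of GRCh38.p14, 5′ to 3′, with capitals marking a CCAAT box, read here on the other strand, and the 2 GC boxes.
CAD: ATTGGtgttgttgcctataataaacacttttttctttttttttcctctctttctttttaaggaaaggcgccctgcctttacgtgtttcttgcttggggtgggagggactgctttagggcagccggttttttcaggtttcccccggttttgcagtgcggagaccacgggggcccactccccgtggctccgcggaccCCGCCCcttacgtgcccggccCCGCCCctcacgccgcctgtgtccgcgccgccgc

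DHODH, the dehydrogenase tied to the respiratory chain, was counted with few reads, between 34 and 160 per library, and so with a wider error than CAD or UMPS. Its 3 WT DMSO libraries stood at 20.7, 23 and 26.5 CPM, the 6 h libraries at 12.6, 10.5 and 16.3 CPM and the 24 h libraries at 15.6, 17.3 and 15.9 CPM. The highest ironomycin library of any group, at 18.0 CPM, was below the lowest DMSO library, at 19.5 CPM. At 6 h DHODH fell by 43.7% (log2 fold change -0.83 ± 0.21, adjusted p = 0.00658). Without the second 6 h library, which had the lowest value of that group, the log2 fold change was -0.70 ± 0.22 (adjusted p = 0.0317). At 24 h in WT the change missed the threshold (log2 fold change -0.53 ± 0.21, adjusted p = 0.0578), although the 3 treated libraries lay below the 3 controls. It passed with the replicate number as a block (adjusted p = 0.0404) and in a fit of WT DMSO and WT 24 h only (adjusted p = 0.0152), with a range of 0.0152 to 0.178 over all alternatives.

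Without HK2, DHODH went from 26.8, 19.5 and 25.6 CPM to 8.07, 13.9 and 14 CPM. The fitted value fell by 49.3% (log2 fold change -0.98 ± 0.21, adjusted p = 0.0013). Without PGP it went from 21.4, 23.8 and 26.3 CPM to 18, 10.9 and 15.8 CPM (log2 fold change -0.67 ± 0.21, adjusted p = 0.0175). That last call did not hold without the third DMSO library (adjusted p = 0.0634) or the second ironomycin library (adjusted p = 0.0880) of that knockout, within a range of 0.0099 to 0.0880 over all alternatives. The DHODH response in the HK2 knockout minus that in WT was -0.45 (interval -1.07 to 0.16) on the log2 scale (adjusted p = 1.00). In the PGP knockout the difference from WT was -0.15 (interval -0.76 to 0.46, adjusted p = 1.00). Neither was called, and both intervals are wide.

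UMPS, which completes uridine monophosphate, stood at 125, 118 and 132 CPM in WT DMSO, 76, 57.8 and 80.2 CPM at 6 h and 78.1, 78.5 and 82.2 CPM at 24 h. The lowest of all 9 DMSO libraries, 109 CPM, exceeded the highest of all 12 ironomycin libraries, 82.2 CPM. UMPS fell by 42.9% at 6 h (log2 fold change -0.81 ± 0.12, adjusted p = 6.55e-05). It fell by 36.4% at 24 h (log2 fold change -0.65 ± 0.12, adjusted p = 0.000301). Without the second 6 h library, the 6 h log2 fold change was -0.68 ± 0.12 (adjusted p = 0.000246). The HK2 knockout went from 127, 109 and 120.3 CPM to 72.2, 63.5 and 69.8 CPM (log2 fold change -0.80 ± 0.12, adjusted p = 4.33e-05). The PGP knockout went from 125, 116 and 125 CPM to 71.4, 54.6 and 73.8 CPM (log2 fold change -0.87 ± 0.13, adjusted p = 1.34e-05). CAD, DHODH and UMPS were thus called lower in both knockouts at 24 h, and CAD and UMPS in WT at that time.

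The pair of CTP synthase genes did not give the same calls. CTPS1, the form that proliferating lymphocytes depend on, stood at 91.9, 101 and 103 CPM in WT DMSO, 67.5, 78.6 and 68.2 CPM at 6 h and 65.3, 54 and 62.8 CPM at 24 h. The 3 groups did not overlap, with the 6 h libraries between the others. CTPS1 fell by 27.8% at 6 h (log2 fold change -0.47 ± 0.11, adjusted p = 0.00382). At 24 h it fell by 38.6% (log2 fold change -0.70 ± 0.11, adjusted p = 4.39e-05). Cells without HK2 went from 90.2, 92.9 and 99.2 CPM to 62, 62.2 and 53.7 CPM (log2 fold change -0.67 ± 0.11, adjusted p = 0.0001). Cells without PGP went from 96, 92.4 and 100.1 CPM to 52.8, 49.97 and 62.3 CPM (log2 fold change -0.80 ± 0.11, adjusted p = 1.08e-05). Both knockouts thus gave separate DMSO and ironomycin libraries.

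CTPS2, the second CTP synthase, had only 17 to 47 counts per library. Its WT libraries stood at 8.14, 7.3 and 3.65 CPM in DMSO, 5.12, 7.2 and 3.19 CPM at 6 h and 6.37, 5.16 and 7.19 CPM at 24 h, and the 3 groups overlapped. The log2 fold change was -0.29 (interval -0.92 to 0.33) at 6 h (adjusted p = 0.524) and -0.008 (interval -0.62 to 0.60) at 24 h (adjusted p = 0.988). Without the second 6 h library the 6 h value was -0.60 ± 0.33 (adjusted p = 0.222). The HK2 knockout libraries in DMSO, at 8.26, 7.98 and 7.69 CPM, lay above those at 24 h, at 5.22, 5.62 and 5.94 CPM. The log2 change was -0.51 (interval -1.11 to 0.10, adjusted p = 0.206). The PGP knockout libraries stood at 9.9, 5.74 and 8.56 CPM in DMSO and 5.03, 5.58 and 4.09 CPM at 24 h. Their log2 change was -0.71 (interval -1.34 to -0.086, adjusted p = 0.0783). This last change would be called without the second PGP knockout DMSO library (log2 fold change -0.92 ± 0.32, adjusted p = 0.0393, the lowest of the alternatives, which ran up to 0.23). At this depth the intervals at 6 h in WT and in the HK2 knockout hold both no change and the fall seen for CTPS1 in the same cells. The difference between both genes was not tested.

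DCTPP1, the pyrophosphatase that removes dCTP and its methylated and other modified forms from the nucleotide pool, had the most negative log2 fold change of the 9 genes in each of the 4 comparisons with DMSO. Its WT libraries stood at 249.95, 253 and 249.6 CPM in DMSO, 122, 109.8 and 118 CPM at 6 h and 107, 94.6 and 101 CPM at 24 h. The 3 groups did not overlap. DCTPP1 fell by 53.6% at 6 h (log2 fold change -1.11 ± 0.10, adjusted p = 4.09e-08). At 24 h the fall reached 59.7% (log2 fold change -1.31 ± 0.10, adjusted p = 1.83e-09). The HK2 knockout went from 232, 214 and 234 CPM to 108, 94.7 and 98.7 CPM (log2 fold change -1.18 ± 0.10, adjusted p = 1.4e-08). The PGP knockout went from 227, 228 and 271 CPM to 94, 91.6 and 103 CPM (log2 fold change -1.33 ± 0.10, adjusted p = 2.57e-09). All 12 ironomycin libraries were at or below 122 CPM, and all 9 DMSO libraries at or above 214 CPM. ZNF771 overlaps DCTPP1 on the opposite strand and stood at 2.78 to 6.74 CPM against at least 91.6 CPM for DCTPP1.

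UCK2, the uridine and cytidine kinase that starts salvage, was not called in any comparison. It stood at 86.2, 88.1 and 89.6 CPM in WT DMSO, 80.5, 86 and 82.5 CPM at 6 h and 88.3, 82.7 and 79.5 CPM at 24 h, and over all 21 libraries it kept between 77.2 and 95.2 CPM. The WT log2 fold change was -0.084 (interval -0.29 to 0.12) at 6 h and -0.075 (interval -0.28 to 0.13) at 24 h (adjusted p = 0.574 and 0.606). It was -0.036 (interval -0.24 to 0.17) in the HK2 knockout and -0.15 (interval -0.35 to 0.056) in the PGP knockout (adjusted p = 0.821 and 0.275). The lowest bound of these 4 intervals was -0.35. The WT 6 h libraries of UCK2 lay narrowly below WT DMSO (highest 86 against lowest 86.2 CPM), as did 17.3% of all tested genes. Those of the PGP knockout at 24 h lay below its DMSO libraries (highest 80.3 against lowest 81.3 CPM), as did 21.2%. In the other 2 comparisons with DMSO the libraries overlapped. UCK2 overlaps TMCO1 on the opposite strand, which stood at 189.7 to 238 CPM and was not called in any comparison. The strandedness of the counting is not known, so reads of this pair cannot be told apart with certainty.

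CMPK1, the kinase that makes UDP and CDP from UMP and CMP, was called in 2 comparisons and higher in both. Its WT libraries stood at 134, 138 and 162 CPM in DMSO, 141, 99.1 and 144 CPM at 6 h and 153, 181 and 173 CPM at 24 h, and neither ironomycin group was separate from DMSO. The changes were -0.18 (interval -0.46 to 0.11) at 6 h and 0.23 (interval -0.059 to 0.51) at 24 h (adjusted p = 0.391 and 0.231). Without the second 6 h library, the lowest of its group, the 6 h value was -0.023 ± 0.13 (adjusted p = 0.927). In PGP knockout cells the 3 DMSO libraries, at 125, 102 and 118 CPM, lay below the 3 ironomycin libraries, at 182, 146 and 154 CPM, as in 22.8% of all tested genes. CMPK1 rose there (log2 fold change 0.48 ± 0.14, adjusted p = 0.01). That rise missed the threshold without the second DMSO library (0.41 ± 0.16, adjusted p = 0.0639) and without the first ironomycin library (0.36 ± 0.15, adjusted p = 0.0796) of that knockout. Over all alternatives the adjusted p ran from 0.00405 to 0.0796. The HK2 knockout libraries of CMPK1, at 124, 145 and 153 CPM in DMSO and 178, 149 and 178 CPM at 24 h, overlapped. Their change was not called (log2 fold change 0.26 ± 0.14, adjusted p = 0.169). The PGP knockout minus WT difference in response was 0.26 (interval -0.14 to 0.66, adjusted p = 1.00), so the rise is not shown to differ from the WT value.

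The 250 bases before the CMPK1 start site are also shown, since this gene was the only 1 of the 9 to be called higher. They are chr1:47333540-47333789 on the plus strand of GRCh38.p14 (RefSeq), and with no capitals they hold none of the 4 motifs searched. The UMPS window held none of them either, although UMPS fell in all 4 comparisons with DMSO. UCK2, which was never called, held a CCAAT box and GC boxes. Whether the matches bear on the changes was not tested.
CMPK1: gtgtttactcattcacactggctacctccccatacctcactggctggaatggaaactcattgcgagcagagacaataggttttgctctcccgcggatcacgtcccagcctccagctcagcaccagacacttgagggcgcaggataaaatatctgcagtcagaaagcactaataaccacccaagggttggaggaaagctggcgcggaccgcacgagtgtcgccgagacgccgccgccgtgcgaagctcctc

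NME1, a nucleoside diphosphate kinase that makes the triphosphates, was lower at 6 h of ironomycin and lower still at 24 h. Its WT libraries stood at 236, 216 and 214 CPM in DMSO, 162, 185 and 159.7 CPM at 6 h and 105, 120.2 and 116 CPM at 24 h, and the 3 groups did not overlap. NME1 fell by 23.8% at 6 h (log2 fold change -0.39 ± 0.12, adjusted p = 0.0171). At 24 h it was down by 48.6% (log2 fold change -0.96 ± 0.12, adjusted p = 1.72e-06). The 6 h call was lost without the first WT DMSO library (adjusted p = 0.0771) and without the first or the third 6 h library (0.0578 and 0.0602). It was also lost in a fit of these 2 groups only (0.0651), and over all alternatives the adjusted p ran from 0.00606 to 0.0771. NME1 without HK2 went from 173, 180.3 and 207 CPM to 118, 96.1 and 99.9 CPM (log2 fold change -0.84 ± 0.12, adjusted p = 1.21e-05). NME1 without PGP went from 209.99, 243 and 260.3 CPM to 93.4, 108 and 119 CPM (log2 fold change -1.16 ± 0.12, adjusted p = 1.49e-07). The neighbouring and closely related NME2 was counted at 1.49 to 9.56 CPM. The joint NME1-NME2 transcript, which overlaps NME1 on the same strand, was at 0 in all 21 libraries. How the counting split reads among these copies is uncertain.

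**Figure D2:**
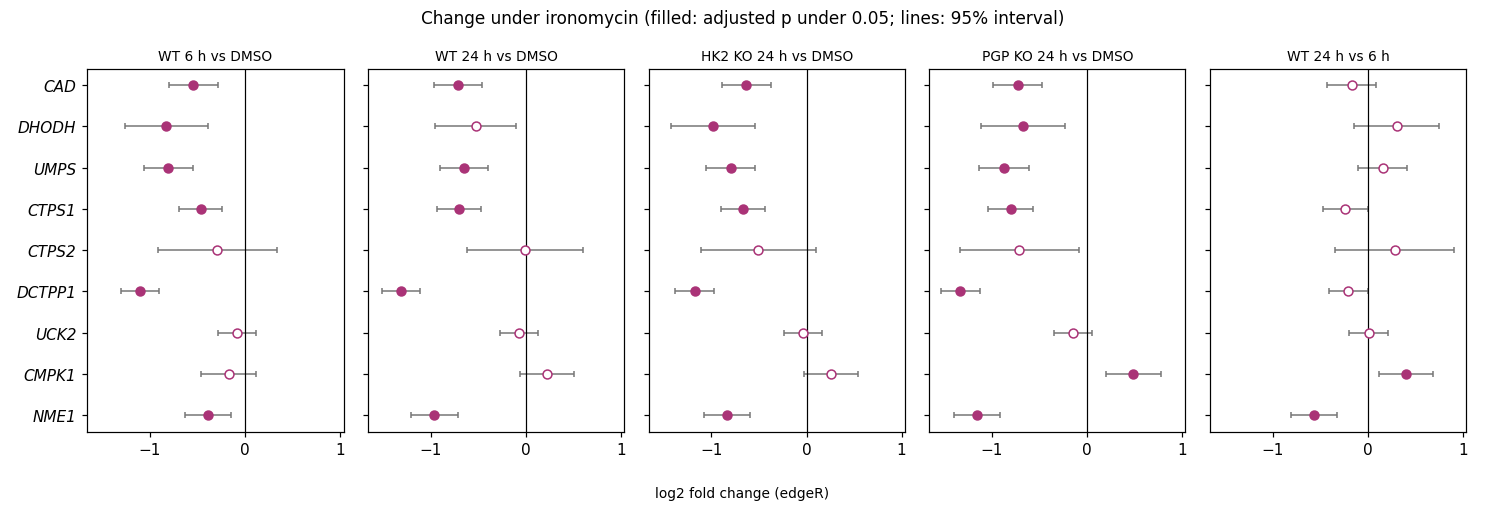
Change of the 9 genes in 5 comparisons, as edgeR log2 fold change (x axis) with 95% intervals (lines). Filled points passed an adjusted p of 0.05 over all tested genes. DCTPP1 lies furthest left in the 4 comparisons with DMSO, from -1.11 to -1.33, UCK2 lies near 0 in all panels, and in the comparison of 24 h with 6 h only NME1 and CMPK1 are filled.

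Between 6 h and 24 h in WT cells, 2 of the 9 genes were called, NME1 lower and CMPK1 higher, where 16.6% of all tested genes were called, 8.08% lower and 8.48% higher. NME1 fell by 32.6% from 6 h to 24 h (log2 fold change -0.57 ± 0.12, adjusted p = 0.00163), and its 3 libraries at 24 h lay below the 3 at 6 h, as in 14.8% of all tested genes. The log2 fold change was -0.50 ± 0.12 (adjusted p = 0.00702) without the second 6 h library. CMPK1 rose from 6 h to 24 h (log2 fold change 0.40 ± 0.14, adjusted p = 0.0495), with libraries wholly higher at 24 h, as in 16% of all tested genes. The second 6 h library, at 99.1 CPM, was far below its replicates. Without it the log2 value of CMPK1 was 0.25 ± 0.13 (adjusted p = 0.226). The call was also lost without the second or the third 24 h library (adjusted p = 0.165 and 0.141), with those groups fitted alone (0.177) and with RLE size factors (0.0506), over a range of 0.0198 to 0.226. The other 7 genes were not called between the times. The log2 change was 0.30 (interval -0.15 to 0.75) for DHODH, 0.16 (interval -0.10 to 0.42) for UMPS and -0.17 (interval -0.43 to 0.091) for CAD. It was -0.23 (interval -0.47 to -0.00085) for CTPS1 and -0.20 (interval -0.41 to 0.00092) for DCTPP1, whose 24 h libraries all lay below those of 6 h. CTPS2 was at 0.28 (interval -0.34 to 0.91) and UCK2 at 0.0092 (interval -0.19 to 0.21). Without the second 6 h library, DHODH was at 0.17 ± 0.23 and UMPS at 0.028 ± 0.12 (adjusted p = 0.708 and 0.918).

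In DMSO, no gene of the 9 was called different between either knockout and WT. In edgeR 0 of 9 were called for the HK2 knockout, where 0.00861% of all tested genes (1 gene) were called, and 0 of 9 for the PGP knockout, where 0% were called. At an unadjusted p under 0.05, 1 of the 9 and 606 of all genes passed for the HK2 knockout, and 1 of the 9 and 648 of all genes for the PGP knockout. DESeq2 also called 0 of the 9 in each. The member below that unadjusted level in the HK2 knockout was NME1, at 173, 180.3 and 207 CPM against 236, 216 and 214 CPM in WT (log2 fold change -0.25 ± 0.12, adjusted p = 0.925). In the PGP knockout it was CMPK1, at 125, 102 and 118 CPM against 134, 138 and 162 CPM (log2 fold change -0.33 ± 0.14, adjusted p = 0.85). The knockout libraries of those pairs lay wholly below WT, as did those of DCTPP1 in the HK2 knockout (log2 fold change -0.14 ± 0.10, adjusted p = 1.00). Of all tested genes, 7.82% lay wholly lower and 5.98% wholly higher in the HK2 knockout. The PGP knockout had 6.68% wholly lower and 6.43% wholly higher. DHODH in DMSO was 23.4 ± 2.96 CPM in WT, 24 ± 3.89 CPM in the HK2 knockout and 23.8 ± 2.47 CPM in the PGP knockout (SD, n = 3), values closer together than their spread. CTPS2, with few counts, had the highest log2 fold change of the 9 in both knockouts. It was 0.34 (interval -0.25 to 0.94) in the HK2 knockout and 0.35 (interval -0.25 to 0.95) in the PGP knockout.

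The response at 24 h was compared between each knockout and WT by the interaction of genotype and treatment. In edgeR 0 of the 9 genes were called in either test, as were 0% of all tested genes, and DESeq2 also called 0. At an unadjusted p under 0.05 there were 0 of the 9 genes in both tests, with 267 of all genes for the HK2 and 221 for the PGP knockout. For CAD the difference was 0.082 (interval -0.28 to 0.45) in the HK2 knockout and -0.016 (interval -0.38 to 0.35) in the PGP knockout, on the log2 scale. For UMPS it was -0.14 (interval -0.51 to 0.22) and -0.22 (interval -0.58 to 0.14). The CTPS1 values were 0.037 (interval -0.29 to 0.36) and -0.10 (interval -0.43 to 0.23). For DCTPP1 they were 0.13 (interval -0.15 to 0.42) and -0.023 (interval -0.31 to 0.26), and for NME1 0.12 (interval -0.22 to 0.47) and -0.20 (interval -0.54 to 0.14). CTPS2, with few counts, stood at -0.50 (interval -1.35 to 0.36) and -0.70 (interval -1.58 to 0.17). UCK2 stood at 0.040 (interval -0.24 to 0.32) and -0.072 (interval -0.36 to 0.21). For CMPK1 in the HK2 knockout the difference was 0.033 (interval -0.37 to 0.44). These intervals give the range of differences compatible with these libraries, and are not limits of detection. The WT libraries are shared by both tests.

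**Figure D3:**
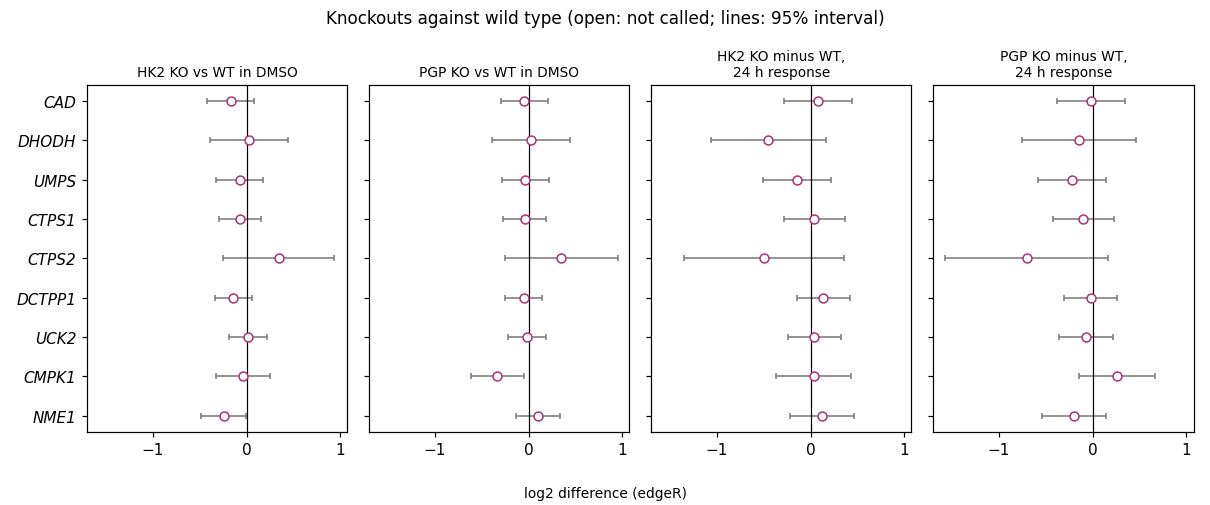
Knockout against WT for the 9 genes: levels in DMSO (left panels) and the difference of the 24 h response (right panels), as edgeR log2 differences on the x axis with 95% intervals (lines). All points are open, since none was called, and the widest intervals belong to CTPS2 and DHODH.

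Ordered by mean level, the groups fell into the same 2 blocks for 5 genes. CAD, DHODH, UMPS, CTPS1 and DCTPP1 had the 3 DMSO groups on top, then a gap without overlap, and then the 4 ironomycin groups. The DMSO groups overlapped with their neighbours in that order. Within the ironomycin block, the WT 6 h group was separate from the next group for CTPS1 (71.4 ± 6.21 against 60.7 ± 5.97 CPM, SD, n = 3) and DCTPP1 (116 ± 6.03 against 101 ± 6.32 CPM). All other neighbours of these 5 genes overlapped. For NME1 the order was PGP knockout DMSO (238 ± 25.6 CPM), WT DMSO (222 ± 12.6 CPM) and HK2 knockout DMSO (187 ± 17.9 CPM). Next came WT 6 h (169 ± 14.2 CPM) and then the 3 groups of 24 h, of which WT was highest (114 ± 7.68 CPM). The WT and HK2 knockout DMSO libraries of NME1 were separate, and the HK2 knockout DMSO and WT 6 h libraries overlapped. For CMPK1 the 3 groups of 24 h stood on top and the PGP knockout in DMSO at the bottom, and neighbours overlapped throughout.

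As a description over the 21 libraries, which share treatment groups and scaling, DCTPP1 correlated with CTPS1 at r = 0.953, with CAD at 0.946, with UMPS at 0.946 and with NME1 at 0.904 (Pearson, log2 CPM). DHODH correlated most with UMPS (0.877). CMPK1 correlated negatively with all other members, from -0.165 with UCK2 to -0.684 with NME1, and UCK2 and CTPS2 showed r of at most 0.568 and 0.481 with any other. Among all tested protein-coding genes outside the 9, the patterns most like that of CAD were MCM10 (r = 0.962), PSME3 (0.958) and PRPF31 (0.952). For DHODH they were PPRC1 (0.900), POLR1B (0.899) and UTP11 (0.887). For CTPS1 they were DSCC1 (0.971), GINS2 (0.966) and PA2G4 (0.963), and for NME1 TIMM10 (0.979), COX6B1 (0.977) and PSMA7 (0.976). MCM10, DSCC1 and GINS2 act in DNA replication, POLR1B and UTP11 in making ribosomal RNA, and TIMM10 and COX6B1 in mitochondria.

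Since 5 of the genes separated all DMSO from all ironomycin libraries, the 250 bases before their RefSeq start sites (GRCh38.p14, 11 windows for the 9 genes) were searched on both strands for 4 short motifs. Each count of genes is set beside the share of the 8703 tested genes with a window that hold the motif in at least 1 window. The E-box CACGTG, which MYC and MAX bind, was found in 2 of 9 genes, DHODH and DCTPP1, and in 11.7% of tested genes. That difference was not tested, and 9 genes are too few to read it. Of the 5 genes that separated all libraries, CAD, UMPS and CTPS1 had no E-box. The CCAAT box was found in 4 of 9 genes (CAD, DHODH, UCK2 and NME1) and 42.1% of tested genes. The GC box GGGCGG was found in 6 of 9 (CAD, DHODH, CTPS1, CTPS2, DCTPP1 and UCK2) and 74.7% of tested genes, and for both boxes the share of the 9 was near that background. The motif TGATGNAA, part of the element that ATF4 binds, was in 0 of 9 and in 2.19% of tested genes. Over all 35116 windows of that length, expressed or not, the shares were 6.34%, 32%, 42.6% and 3.14% in the same order. No match of 1 motif overlapped a match of another, while neighbouring GC boxes overlapped each other in DHODH and CTPS1. The 2 E-boxes are shown in 30 bases each, 5′ to 3′ along the gene, with the E-box in capitals. They are for DHODH chr16:72008573-72008602 on the plus strand, and for DCTPP1 chr16:30429801-30429830 on the minus strand. Both stretches reach into longer annotated transcripts of these genes.
DHODH: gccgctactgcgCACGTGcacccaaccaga
DCTPP1: gcgttttggggagggttcctcCACGTGgtc

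The genes around these 9 were described by 8 lists. Beside the WT 24 h median of -0.65 for the 9, the list medians were -0.89 for deoxynucleotide synthesis, -0.53 for complex III with cytochrome c, -0.39 for ubiquinone and 0.27 for users of UTP and CTP. They were -0.056 for salvage, -0.094 for other kinases, 0.054 for nucleotidases and -0.017 for substrate supply, and 0.025 for all tested genes. Of 10 tested genes for deoxynucleotide and thymidylate synthesis, 4 fell and 0 rose at 6 h in WT, and 7 fell and 0 rose in each of the 3 comparisons at 24 h. Over all tested genes, 11.1% fell at 6 h, and 14.6% in WT, 13.5% in HK2 knockout and 15.4% in PGP knockout cells at 24 h. RRM1, the large subunit of ribonucleotide reductase, went from 479 ± 35.7 to 215 ± 31.4 CPM at 24 h in WT (log2 fold change -1.16 ± 0.12, adjusted p = 1.98e-07). TYMS, thymidylate synthase, which turns dUMP into dTMP, went from 186 ± 19.8 to 60.9 ± 7.59 CPM (log2 fold change -1.61 ± 0.20, adjusted p = 2.45e-06). DTYMK, the next kinase, went from 159 ± 0.399 to 76.3 ± 1.48 CPM (log2 fold change -1.06 ± 0.13, adjusted p = 1.86e-06).

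Salvage and uptake moved in both directions. Of 10 tested genes, 1 rose and 1 fell at 6 h in WT, 3 rose and 2 fell at 24 h in WT, 3 rose and 3 fell in HK2 knockout cells, and 4 rose and 3 fell in PGP knockout cells. The shares called over all tested genes were 22%, 29.8%, 29.4% and 31.5% in the same order, so the count at 6 h was at the background. SLC29A1, the equilibrative nucleoside transporter ENT1, fell from 78.2 ± 5.45 to 23 ± 2.08 CPM at 24 h in WT (log2 fold change -1.77 ± 0.15, adjusted p = 9.19e-09). At 6 h in WT it was already down to 30.2 ± 5.68 CPM (log2 fold change -1.37 ± 0.14, adjusted p = 5.01e-07). TK1, the cytosolic thymidine kinase of dividing cells, fell from 53 ± 5.42 to 25.8 ± 3.21 CPM (log2 fold change -1.04 ± 0.14, adjusted p = 6.58e-06). TYMP, thymidine phosphorylase, rose from 21.8 ± 2.71 to 64.7 ± 13.1 CPM (log2 fold change 1.56 ± 0.21, adjusted p = 6.67e-06). The mitochondrial thymidine kinase TK2 rose at 6 h from 5.28 ± 0.335 to 11.7 ± 2.45 CPM (log2 fold change 1.15 ± 0.22, adjusted p = 0.000611). The UCK2 values set beside these were -0.084 ± 0.10 at 6 h and -0.075 ± 0.10 at 24 h in WT (log2 fold change ± SE).

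Among 9 tested other mono- and diphosphate kinases, 0 rose and 1 fell at 6 h in WT, 1 rose and 1 fell at 24 h in WT and in HK2 knockout cells, and 1 rose and 2 fell in PGP knockout cells. These counts were near or below the shares called over all tested genes, 22% at 6 h and 29.8%, 29.4% and 31.5% at 24 h in WT, HK2 knockout and PGP knockout cells. The gene that rose at 24 h was CMPK2, the mitochondrial counterpart of CMPK1 that interferon also induces, from 2.48 ± 0.872 to 22.1 ± 9.88 CPM in WT (log2 fold change 3.11 ± 0.44, adjusted p = 1.02e-05). NME4, the mitochondrial nucleoside diphosphate kinase, fell from 101 ± 7.59 to 60.2 ± 4.01 CPM (log2 fold change -0.75 ± 0.14, adjusted p = 0.000246). For the nucleotidases and breakdown enzymes, 1 of 7 rose at 6 h in WT and 3 of 7 rose at 24 h in WT, and 3 rose in each knockout with 1 that fell in HK2 knockout cells. Of all tested genes, 10.9% rose at 6 h, and 15.3% in WT, 15.9% in HK2 knockout and 16.1% in PGP knockout cells at 24 h. SAMHD1, which breaks down dNTPs, rose from 112 ± 18.2 to 177 ± 21.7 CPM (log2 fold change 0.66 ± 0.15, adjusted p = 0.00184) at 24 h in WT. So did NT5C2, a 5′-nucleotidase (log2 fold change 0.61 ± 0.12, adjusted p = 0.000371), and UPB1, the last enzyme of uracil breakdown (log2 fold change 1.87 ± 0.36, adjusted p = 0.000394).

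The substrates of CAD and UMPS are glutamine, aspartate and PRPP. Of 11 tested genes of their supply, 2 rose and 3 fell at 6 h in WT, 3 rose and 3 fell at 24 h in WT, 4 rose and 3 fell in HK2 knockout cells, and 2 rose and 3 fell in PGP knockout cells. The background of called genes, in either direction, was 22%, 29.8%, 29.4% and 31.5%. GOT1, the cytosolic transaminase that can make aspartate, rose at 6 h from 11 ± 1.42 to 29.1 ± 2.21 CPM (log2 fold change 1.39 ± 0.17, adjusted p = 5.12e-06). The glutamine carrier SLC1A5 rose (log2 fold change 0.49 ± 0.12, adjusted p = 0.00385). The SLC1A5 value was 0.31 ± 0.10 (adjusted p = 0.0313) without the second 6 h library and missed the threshold in a fit of these 2 groups only (adjusted p = 0.0643), within a range of 0.000771 to 0.0643. At 24 h in WT the mitochondrial aspartate-glutamate carrier SLC25A13 fell (log2 fold change -0.74 ± 0.13, adjusted p = 0.000116). PRPS1, which makes PRPP, fell (log2 fold change -0.69 ± 0.14, adjusted p = 0.000681), and PRPSAP2, a protein associated with that enzyme, rose (log2 fold change 0.78 ± 0.16, adjusted p = 0.000773).

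DHODH hands its electrons to ubiquinone, which complex III reoxidises. Of 18 tested genes that make ubiquinone or reduce it, 1 rose and 2 fell at 6 h in WT, 1 rose and 5 fell at 24 h in WT, and 1 rose and 4 fell in each knockout. Over all tested genes, 22% were called in either direction at 6 h and 29.8% at 24 h in WT. The shares were 29.4% in HK2 knockout and 31.5% in PGP knockout cells. Counts of both directions together were near or below that background. Called lower were 11.1% at 6 h, 14.6% at 24 h in WT, 13.5% in HK2 knockout and 15.4% in PGP knockout cells. The falls at 24 h lay above these shares, and that difference was not tested. COQ2 and COQ3, enzymes of ubiquinone synthesis, fell at 24 h in WT, from 108 ± 9.44 to 55.4 ± 2.32 CPM (log2 fold change -0.96 ± 0.16, adjusted p = 5.96e-05) and from 18.1 ± 2.83 to 8.62 ± 1.38 CPM (log2 fold change -1.07 ± 0.21, adjusted p = 0.000496). SQOR, which passes electrons from sulfide to ubiquinone, rose (log2 fold change 0.62 ± 0.12, adjusted p = 0.000529). Of 9 tested genes of complex III and cytochrome c, 4 fell at 6 h in WT, 8 at 24 h in WT, 6 in HK2 knockout cells and 8 in PGP knockout cells, and 0 rose in any, against 11.1%, 14.6%, 13.5% and 15.4% of all tested genes called lower. UQCRQ, a subunit of complex III, fell from 525 ± 37.9 to 314 ± 25.6 CPM at 24 h in WT (log2 fold change -0.74 ± 0.11, adjusted p = 2.64e-05). CYCS, cytochrome c, fell from 281 ± 33.4 to 162 ± 3.91 CPM (log2 fold change -0.79 ± 0.14, adjusted p = 0.00011). The DHODH value in that comparison, -0.53 ± 0.21, was not called.

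Among the enzymes that consume UTP and CTP, none was called lower at 24 h. Of 11 tested, 0 rose and 3 fell at 6 h in WT, first by adjusted p UAP1, which makes UDP-N-acetylglucosamine (log2 fold change -0.87 ± 0.22, adjusted p = 0.00636). Over all tested genes 11.1% were called lower at 6 h. At 24 h 4 rose in WT, 3 in HK2 knockout and 2 in PGP knockout cells, against 15.3%, 15.9% and 16.1% of all tested genes called higher. The count that rose in PGP knockout cells was near its background. At 24 h 0 fell in any, against 14.6%, 13.5% and 15.4% of all tested genes called lower. With 11 genes, a count of 0 is near those shares. PCYT2 and PCYT1A, the CTP-dependent enzymes of phosphatidylethanolamine and phosphatidylcholine synthesis, rose at 24 h in WT (0.69 ± 0.15, adjusted p = 0.00129, and 0.39 ± 0.12, adjusted p = 0.0141), and so did UGDH, which oxidises UDP-glucose (0.86 ± 0.20, adjusted p = 0.00189). The PCYT1A call was lost without the third WT DMSO or the third WT 24 h library (adjusted p = 0.0961 and 0.0808) and with no filter on low counts (0.0864), within a range of 0.00957 to 0.0961.

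**Figure D4:**
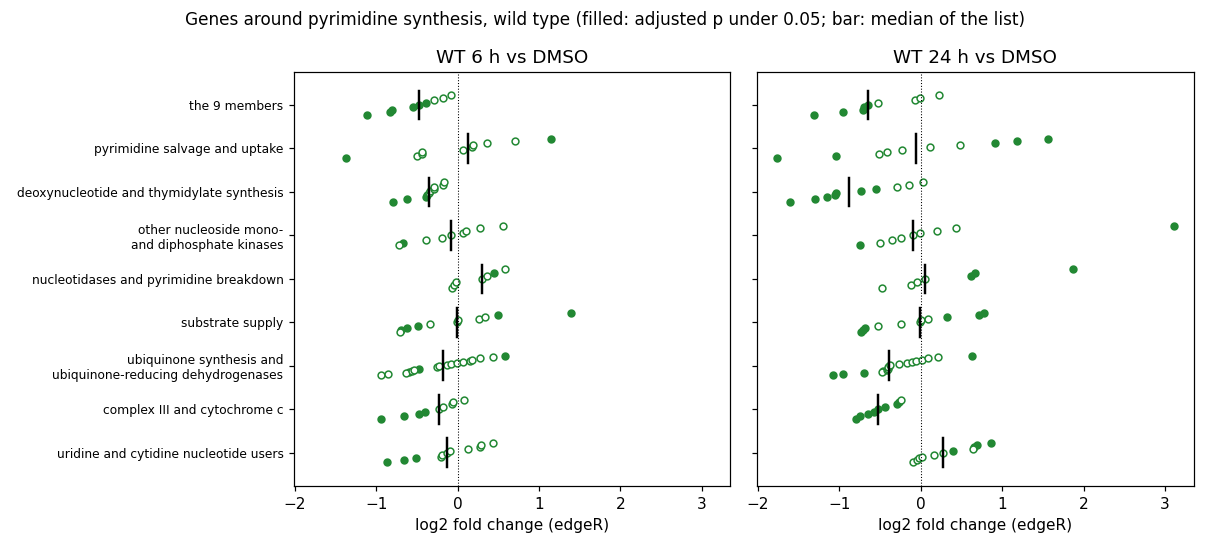
Log2 fold changes (edgeR, x axis) of the 9 genes and of 8 surrounding gene lists in WT cells at 6 h and at 24 h against DMSO. Each point is 1 tested gene, filled where the adjusted p was under 0.05, and bars are list medians. At 24 h the 9 genes (median -0.65), deoxynucleotide synthesis (median -0.89) and complex III with cytochrome c (median -0.53) lie mostly left of 0, and the point furthest right is CMPK2 at 3.11.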

How the data were processed

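RNA of 21 MV4-11 libraries was isolated with Qiagen RNeasy and prepared with the Lexogen QuantSeq 3′ kit, per the labels' protocols. Per the submitters' processing notes, bcl2fastq 2.20.0.422, HISAT2, HTSeq and the build hg19 were used. The authors deposited raw counts per Ensembl gene, without normalization, and the strand setting and annotation release are not given in the sources used here. A symbol was found for 51854 of 54042 identifiers, and the other 2188 held 8 counts in all.

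The test was edgeR's quasi-likelihood test (version 4.0.16, with limma 3.58.1, under R 4.3.3) on those counts, after TMM scaling. A low-count filter (filterByExpr, minimum count 10, minimum total 15) kept 11610 genes, and 1 model covered all 21 libraries (common biological coefficient of variation 0.149). Adjusted p-values are Benjamini-Hochberg over all tested genes, the SE is the log2 fold change divided by the root of F, and 95% intervals follow from it. The 9 comparisons were each ironomycin group against its DMSO, WT 24 h against 6 h, each knockout against WT in DMSO, and the differences of the 24 h responses. Tables and figures were made with Python 3.11.15, pandas 2.3.3, numpy 2.4.6 and matplotlib 3.10.9. Alternatives were DESeq2 1.42.0, RLE scaling, all genes with any count, a replicate block, the compared groups alone, and leaving out each library.

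The 9 genes and the 8 lists were chosen with earlier results of these data known. All 9 are described throughout, but CAD, UMPS, CTPS1 and UCK2 without a fitted change for the knockouts against WT in DMSO. From each list, called genes are named in order of adjusted p, up to 3 per comparison described. In the substrate supply list, 1 gene is not reported here by name. The most alike genes are the 3 with the highest Pearson correlation of log2 CPM (prior count 2). Promoter windows are RefSeq sequences on GRCh38.p14, and GENCODE 29 served for missing names and gene overlaps.

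The labels do not say what replicate numbers mark. For the PGP knockout, same-numbered DMSO and 24 h libraries deviated together (r = 0.243, 0.164 and 0.247), so libraries of 1 number were regarded as paired in that knockout, on these data and not on the design. The values reported come from the fit without a replicate block, for the PGP knockout too, and the blocked fit is an alternative. Elsewhere at least 1 pair was under 0.1. On simulated counts for WT 24 h against DMSO (11610 genes), the pipeline recovered 46 of 50 genes at a fold of 0.25, 37 of 50 at 0.5, 38 of 50 at 2 and 50 of 50 at 4, with 9 false calls.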

Additional observations from a re-analysis of the deposited data

Results flagged for a closer look

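Under ironomycin, NME1 differed between 6 h and 24 h in WT cells. No time is given for DMSO, so time with ironomycin and time in culture cannot be told apart here. The 24 h libraries of NME1 were lower by a log2 fold change of -0.57 ± 0.12 (SE, edgeR, adjusted p = 0.00163, lower in 3 of 3 libraries), at 114 ± 7.68 CPM against 169 ± 14.2 CPM (SD, n = 3). For CMPK1 the 24 h libraries were higher by 0.40 ± 0.14 (adjusted p = 0.0495, higher in 3 of 3 libraries), at 169 ± 14.3 CPM against 128 ± 25.2 CPM, and this value was 0.25 ± 0.13 (adjusted p = 0.226, the highest of its alternatives, which began at 0.0198) without the second 6 h library.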

How the results depend on the processing

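Of 26 called changes of the 9 genes, 22 kept direction and call in every one of their alternatives. The other 4, for DHODH and CMPK1 in the PGP knockout, NME1 at 6 h and CMPK1 between 6 h and 24 h, are given with their values in the report. The cause was not tested. Of the 9 genes, 1 instead of 2 was called between 6 h and 24 h with RLE size factors and with the compared groups alone, and 1 to 2 on leaving out a library. With the replicate block, 7 genes stayed called in the PGP knockout and 6 instead of 5 at 24 h in WT, where DHODH passed (-0.52), and no other call of the 9 changed. Over all genes, the HK2 knockout in DMSO gave 59 calls with no filter, 19 with the replicate block, 17 with the groups alone, 15 with DESeq2 and 0 to 8 on leaving out a library, against 1. The PGP knockout in DMSO gave 96 with no filter and 2 with the groups alone. The response differences gave 17 (HK2) and 18 (PGP) with no filter, and 1 (PGP) with the groups alone. With the groups alone, 1212 genes were called at 6 h in WT and 749 between 6 h and 24 h, where leaving out a library gave 1271 (without the third 24 h library) to 2220. Signs reversed only for changes that were not called: CAD in the PGP response difference (0.0016 with no filter) and CTPS2 at 24 h in WT (0.013 with the block). On leaving out a library, values changed sign for CAD (-0.012 to 0.18 and -0.11 to 0.059 in the HK2 and PGP response differences, -0.11 to 0.038 in PGP knockout DMSO), CMPK1 (-0.054 to 0.12 in the HK2 response difference, -0.10 to 0.048 in HK2 knockout DMSO), CTPS1 (-0.044 to 0.097 in the HK2 response difference), CTPS2 (-0.0060 to 0.60 between 6 h and 24 h, -0.33 to 0.20 at 24 h in WT), DCTPP1 (-0.074 to 0.063 in the PGP response difference), DHODH (-0.061 to 0.16 and -0.052 to 0.13 in HK2 and PGP knockout DMSO, -0.31 to 0.024 in the PGP response difference), UCK2 (-0.13 to 0.00086 at 24 h in the HK2 knockout, -0.031 to 0.095 in its response difference, -0.038 to 0.087 and -0.042 to 0.031 in HK2 and PGP knockout DMSO, -0.046 to 0.036 between 6 h and 24 h) and UMPS (-0.079 to 0.0049 in PGP knockout DMSO). The alternatives were extended, after seeing the data, to the other genes named with a test, apart from SLC29A1 at 6 h, for which they were not run. Of those 26 calls, 24 held in all alternatives. The exceptions, PCYT1A at 24 h and SLC1A5 at 6 h, are given with their values in the report. HK2 in its own knockout (adjusted p = 0.121) passed with no filter (8.71e-10), the replicate block (0.0237), the groups alone (0.00987) and DESeq2 (0.0369). RLE size factors moved the median of all genes by at most 0.0148 (log2). Depth limits CTPS2 (17 to 47 counts) and DHODH (34 to 160 counts) most.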
